A study of Mus musculus with 27 samples.

Results

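The 8 genes described here mark the macrophages of the embryo and were followed through hearts with lowered doses of Brg1, Tbx5 and Nkx2-5. They are Mrc1, Csf1r, Adgre1, Cx3cr1, Fcer1g, Tyrobp, Aif1 and Ptprc, taken by symbol from the 19935 genes of the array, and each of the 8 had 1 probe set. Brg1, encoded by Smarca4, is the motor subunit of BAF chromatin remodeling complexes, while both factors, Tbx5 and Nkx2-5, bind DNA and drive heart formation. Total RNA of whole E11.5 mouse hearts from a mixed C57Bl/6/BLKSW strain was measured on 27 arrays in 6 genotype groups, which were wild type (n = 6), Brg1+/- (n = 6), Tbx5+/- (n = 5), Nkx2-5+/- (n = 4), Tbx5+/- Brg1+/- (n = 3) and Nkx2-5+/- Brg1+/- (n = 3). The single heterozygotes carried a deletion in 1 copy of the named gene, the compound heterozygotes in 1 copy of each of both named genes, and the labels name no allele or tissue-specific driver. Whether an array held 1 heart, or whether hearts were pooled, was not stated, so the p-values measure the spread between arrays.

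Macrophages reach the heart early, first from the yolk sac and later from the fetal liver, and settle among its muscle and vessels. They depend on Csf1r, the receptor kinase for the growth factors Csf1 and Il34, while Cx3cr1 is the receptor for the chemokine Cx3cl1. Mrc1 is a mannose receptor that takes up glycoproteins, and Adgre1 is the adhesion receptor detected by the F4/80 antibody. Fcer1g and Tyrobp are adaptor proteins whose ITAM motifs pass signals from surface receptors to the kinase Syk. Aif1 is an actin-binding protein also known as Iba1, and Ptprc is CD45, a phosphatase carried by nearly all white blood cells. In whole hearts, fewer macrophages and less RNA per macrophage cannot be told apart.

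The 8 genes varied together from array to array, so the stretches before their start sites are shown for 3 of them. In Brg1+/- hearts Mrc1 and Cx3cr1 were lower at an unadjusted p under 0.05 and Fcer1g was not, and none of the 3 passed after adjustment. RefSeq promoter windows of build GRCm38.p6 were found for 5 of the 8 genes, in 6 windows, since Ptprc has alternative starts. The letters searched were GAGGAA on both strands, the core recognised by PU.1, the Spi1 product that directs macrophage development. Each line gives the 250 bases before the start site, 5′ to 3′ in the direction of the gene, and capitals mark GAGGAA or its reverse complement.
Mrc1, chr2:14229164-14229413, plus strand: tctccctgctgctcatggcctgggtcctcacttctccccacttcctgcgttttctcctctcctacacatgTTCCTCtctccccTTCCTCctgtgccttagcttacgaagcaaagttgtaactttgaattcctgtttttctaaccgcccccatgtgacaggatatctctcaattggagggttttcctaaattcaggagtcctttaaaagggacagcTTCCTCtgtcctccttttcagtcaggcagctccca
Cx3cr1, chr9:120068297-120068546, minus strand: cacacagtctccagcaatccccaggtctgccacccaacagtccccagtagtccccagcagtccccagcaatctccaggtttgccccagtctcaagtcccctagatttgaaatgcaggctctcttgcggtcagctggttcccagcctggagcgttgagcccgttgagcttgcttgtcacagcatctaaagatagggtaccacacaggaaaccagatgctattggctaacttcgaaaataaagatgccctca
Fcer1g, chr1:171234350-171234599, minus strand: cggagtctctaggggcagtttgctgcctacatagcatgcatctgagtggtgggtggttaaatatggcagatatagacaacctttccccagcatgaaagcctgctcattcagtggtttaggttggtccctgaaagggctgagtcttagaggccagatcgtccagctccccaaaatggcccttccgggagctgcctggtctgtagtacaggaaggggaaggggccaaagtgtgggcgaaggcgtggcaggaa

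Mrc1 held 3 matches, which begin 180, 167 and 35 bases before the start site, and neither Cx3cr1 nor Fcer1g held any. Aif1 held 1 match, which begins 7 bases before its start, and 1 of the 2 Ptprc windows held 1. At least 1 match was present in 3 of the 6 windows and in 23.3% of the 32851 windows of all genes. The letters TNAAGTG, a core bound by Nkx2-5, occurred in 1 of the 6 windows, that of Aif1, against 10.1% of all windows. GGTGTGA, a T-box core, occurred in 0 of the 6 windows, against 3.3% of all. The 2 Ptprc windows overlap each other, and the GAGGAA and TNAAGTG matches of Aif1 do not overlap. A match describes the sequence without showing that a factor binds it.

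2 arrays went against their labels in Smarca4. Smarca4 lay between log2 9.95 and 10.16 in wild-type arrays and between 9.16 and 9.45 in Brg1+/- arrays. The array labelled Nkx2-5+/- replicate 3 had Smarca4 at 9.57, where the other 3 arrays of its group had 9.89 to 10.08, and Nkx2-5 at 9.40, where the others had 8.48 to 8.63. The array labelled Tbx5+/- Brg1+/- replicate 3 had Smarca4 at 10.01, where the other 2 had 9.51 and 9.64. Nkx2-5 ran from 9.17 to 9.96 in wild-type arrays and from 8.85 to 9.235 in Nkx2-5+/- Brg1+/- arrays. Replicate 2 of that compound group, at 9.235, lay within the wild-type range, so Nkx2-5 did not fully separate the group from wild type. Tbx5 did not separate the Tbx5+/- arrays (8.51 to 8.90) from wild type (8.40 to 8.96), so it gave no check of the Tbx5 labels. A probe set outside the deleted part would not show the loss, and where it lies was not tested. Tbx5 was below every wild-type array in all Brg1+/- arrays (7.83 to 8.35) and in the other 3 Nkx2-5+/- arrays (7.82 to 8.01). Values with these arrays left out stand beside the results that rest on them. Heart muscle markers were high in all 27 arrays, where the mean of 12 cardiomyocyte genes ran from 11.07 to 12.24.

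In Brg1+/- hearts 4 of the 8 genes, Mrc1, Csf1r, Adgre1 and Cx3cr1, had differences from wild type between -0.71 and -0.45. They are called the 4 receptors below as a short name, which makes no claim about surface proteins as a class. None of the 8 differences passed the test after adjustment over all genes (limma), in a comparison where 2 of 19935 genes did (0.0100%). At an unadjusted p under 0.05, these same 4 of the 8 genes were lower, against 5.89% of all genes. The median log2 difference of the 8 genes was -0.29, and that of all genes was -0.02.

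Mrc1 ran from 6.46 through a median of 6.77 to 7.24 in wild-type arrays and from 5.78 through 6.14 to 6.53 in Brg1+/- arrays. All 6 Brg1+/- arrays were below the wild-type mean and 5 were below the lowest wild-type array. The log2 difference was -0.71 (SE 0.18), a 1.63-fold lower signal, with an adjusted p of 0.318.

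Adgre1 was the one gene of the 8 whose Brg1+/- and wild-type arrays did not overlap, in the lower direction, which holds for 0.441% of all genes. Its wild-type values ran from 5.58 through a median of 5.73 to 5.97, and its Brg1+/- values ran from 5.09 through 5.28 to 5.53. The difference was -0.45 (SE 0.13, adjusted p 0.379).

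Csf1r lay between 6.94 and 7.65 in wild type, with a median of 7.23, and between 6.55 and 6.94 in Brg1+/- hearts, with a median of 6.80. The groups touched at one edge, where 5 of 6 Brg1+/- arrays were below every wild-type array. The difference was -0.49 (SE 0.16, adjusted p 0.407). Cx3cr1, the fractalkine receptor, ran from 6.52 through 7.06 to 7.59 in wild type and from 6.40 through 6.62 to 6.90 in Brg1+/- hearts. Here only 2 of 6 Brg1+/- arrays were below the lowest wild-type array, although all 6 were below the wild-type mean. The difference was -0.48 (SE 0.14, adjusted p 0.379).

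The remaining 4 genes did not reach an unadjusted p under 0.05 in Brg1+/- hearts. Fcer1g, which pairs with Fc receptors on macrophages and mast cells and with a collagen receptor on platelets, averaged 6.70 ± 0.19 (SD, n = 6) in wild type and 6.71 ± 0.19 (n = 6) in Brg1+/- hearts. The 95% interval of its difference reached from -0.38 to 0.42. Tyrobp differed by -0.08 with an interval from -0.33 to 0.18, Aif1 by -0.13 with an interval from -0.34 to 0.08, and Ptprc by -0.10 with an interval from -0.33 to 0.12. In Ptprc, 4 of 6 Brg1+/- arrays were below every wild-type array and 1 was above every wild-type array. Whether the 4 receptors differed from these 4 genes in their response was not tested.

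**Figure D1:**
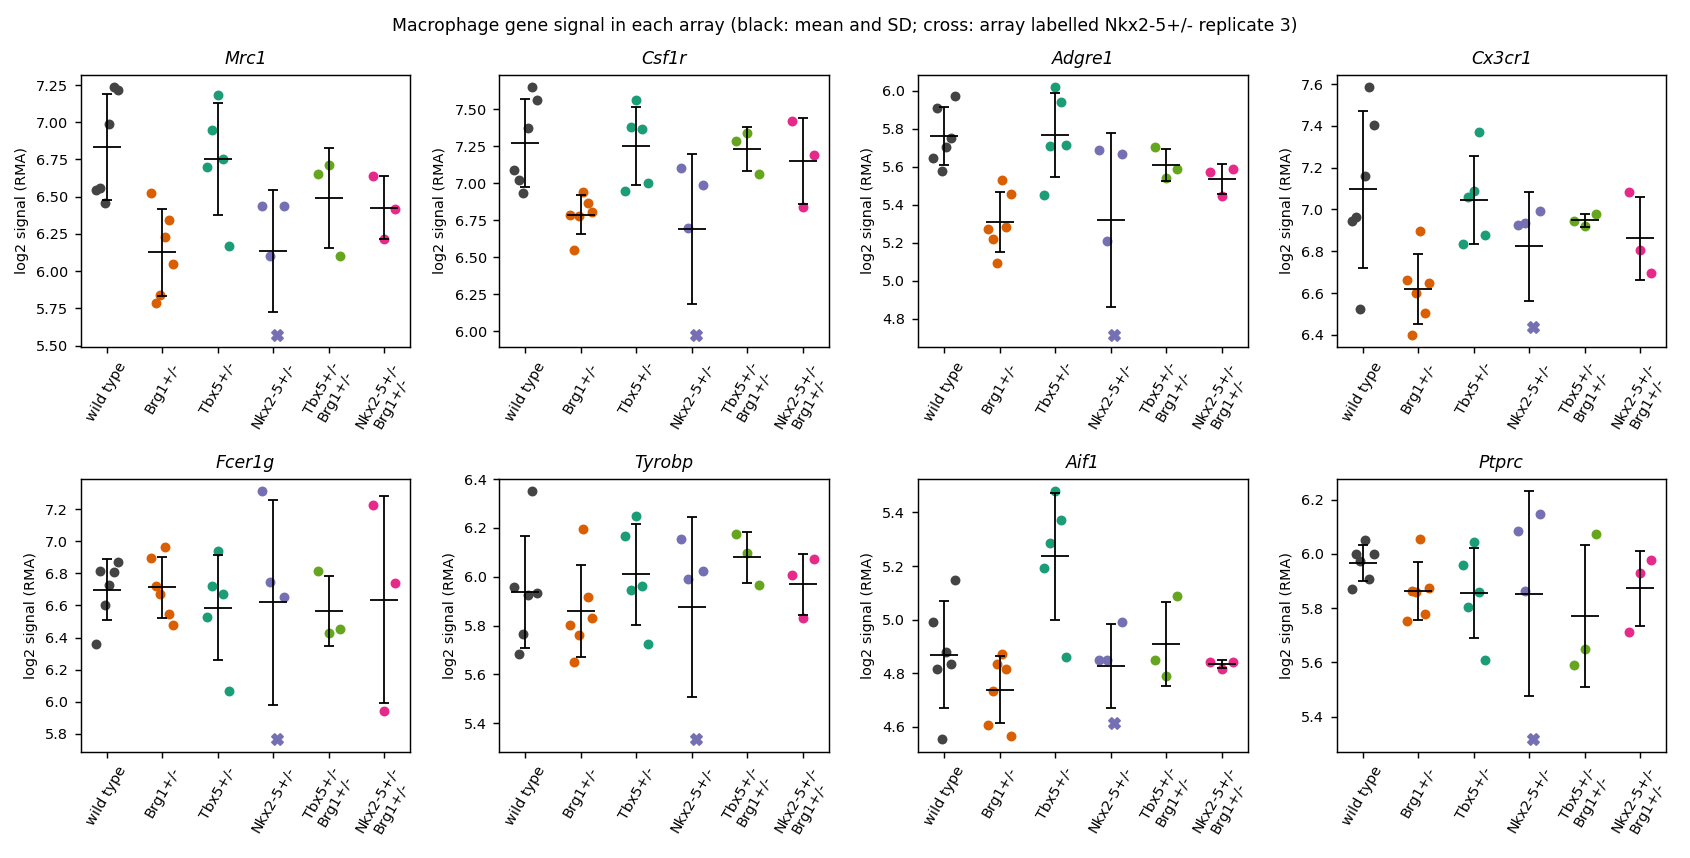
Log2 signal (vertical axis) of each of the 8 genes in each of the 27 arrays, by genotype group (horizontal axis), with black bars for the mean and SD and a cross for the array labelled Nkx2-5+/- replicate 3. The Brg1+/- arrays sit low in Mrc1, Csf1r, Adgre1 and Cx3cr1. In Aif1, the gene of lowest mean signal, 4 of the 5 Tbx5+/- arrays sit high. The cross is the lowest of all arrays in 6 of the 8 panels.

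Markers of other cell types lay apart in the same hearts, and their part in the macrophage values was not tested beyond the covariate fits given here. The 12 erythroid genes measured had a median difference of 1.01 in Brg1+/- hearts, with 9 of 12 higher at an unadjusted p under 0.05 and 0 called. Their mean signal ran from 8.45 to 10.23 in wild-type arrays and from 9.08 to 11.00 in Brg1+/- arrays. The 6 megakaryocyte genes measured had a median difference of 0.38, and all 6 were above 0. Neutrophil and mast cell markers had a median difference of 0.01 over 14 genes, and lymphocyte markers one of -0.01 over 10 genes. Their wild-type mean signals were only 4.71 and 4.58, where the array medians ran from 6.18 to 6.33. At such low signals a change in these cells could go unseen. Endothelial genes had a median of -0.12 and cardiomyocyte genes one of -0.20, with 0 called among 12 of each. With the erythroid mean of each array as a covariate, the Brg1+/- differences were -0.66 for Mrc1, -0.50 for Csf1r, -0.53 for Adgre1 and -0.44 for Cx3cr1.

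Among other genes of macrophage biology, 29 of a list of 30 further tissue macrophage markers were measured. Their median difference in Brg1+/- hearts was -0.18, 26 of 29 were below 0 and 10 of 29 were lower at an unadjusted p under 0.05, against 5.89% of all genes. None passed after adjustment. Ly86, a partner of the receptor RP105, differed by -0.62 (SE 0.17, adjusted p 0.37), and C1qb, a chain of the complement starter C1q, by -0.58 (SE 0.16, adjusted p 0.379). Of 9 macrophage transcription factors measured, 0 passed, and Spi1 differed by -0.35 (SE 0.15, adjusted p 0.452) and Maf by -0.24 (SE 0.13, adjusted p 0.569). Among the ligands of Csf1r and Cx3cr1, Csf1, Il34 and Cx3cl1 differed by -0.15, -0.02 and 0.04, and 0 of the 3 passed.

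In Tbx5+/- hearts the 4 receptors differed from wild type by -0.08 to 0.01, and Aif1 was higher in most arrays. None of the 8 genes passed, as none of all genes did (0%), and 1 of the 8 was higher at an unadjusted p under 0.05, against 2.17% of all genes. Aif1 had the lowest mean signal of the 8 genes, 4.90 over all arrays, which was above that of only 22.3% of all genes. It was 5.19, 5.28, 5.48, 5.37 and 4.86 in the 5 Tbx5+/- arrays and ran from 4.55 through a median of 4.86 to 5.15 in wild type. Thus 4 of 5 Tbx5+/- arrays were above every wild-type array, and the fifth was near the wild-type mean. The difference was 0.37 (SE 0.11, a 1.29-fold higher signal, adjusted p 1). For Mrc1 the 95% interval of the difference reached from -0.47 to 0.30, and for Csf1r from -0.36 to 0.31. Ptprc was the gene with the next smallest p, at -0.11 (SE 0.12, adjusted p 1). The 29 other tissue macrophage genes had a median of 0.00 in this comparison, with 15 below 0 and 0 at an unadjusted p under 0.05.

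Among the comparisons with wild type, Nkx2-5 loss was the one in which any of the 8 genes passed the test. Mrc1 and Csf1r fell, and all 8 genes had differences below 0, with a median of -0.19 against -0.01 over all genes. The 2 genes called lower compare with 5.16% of all genes called lower and 7.89% called in either direction. At an unadjusted p under 0.05, 3 of the 8 were lower, against 13.9% of all genes.

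Mrc1 was 6.43, 6.10, 5.57 and 6.44 in the Nkx2-5+/- arrays, all below the lowest wild-type array at 6.46, and such a lower group without overlap was found for 1.43% of all genes. It fell by 0.70 on the log2 scale (SE 0.20, limma adjusted p 0.0321). Csf1r was 7.10, 6.70, 5.98 and 6.99, so that 2 of the 4 arrays were below every wild-type array. It fell by 0.58 (SE 0.17, adjusted p 0.0389). Adgre1 was 5.69, 5.21, 4.72 and 5.67, and its difference of -0.44 (SE 0.14) just missed the threshold, with an adjusted p of 0.0515.

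In each of these lists of values the lowest belongs to the array labelled Nkx2-5+/- replicate 3. That array was the lowest of all 27 in 6 of the 8 genes, and its mean over the 8 genes was 5.47, where the other 26 arrays ran from 5.87 to 6.57. Without it, none of the 8 genes was called in Nkx2-5+/- hearts, although the number of all genes called rose from 1572 to 4368. Mrc1 then differed by -0.51 (adjusted p 0.0761), Csf1r by -0.34 (adjusted p 0.125) and Adgre1 by -0.24 (adjusted p 0.182). Fcer1g, Tyrobp, Aif1 and Ptprc turned to differences of 0.21, 0.12, 0.03 and 0.07, each above 0. The count of called members was also 0 without Nkx2-5+/- replicate 2 or 4 and without wild type replicate 4, 5 or 6, and it was 1 without wild type replicate 1.

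Blood and muscle markers differed in these hearts as well. The erythroid genes had a median difference of 1.41, with 4 of 12 called higher, among them Gata1, the erythroid transcription factor, and Epor, the erythropoietin receptor. The cardiomyocyte genes had a median of -0.50, with 8 of 12 called lower. With both mismatched arrays left out, the erythroid median was 1.97, with 12 of 12 called higher, and the cardiomyocyte median was -0.68, with 10 of 12 called lower. Across the 4 arrays the erythroid mean was 11.16, 11.22, 9.04 and 11.02, and the cardiomyocyte mean was 11.22, 11.12, 12.24 and 11.07, so the array labelled replicate 3 was again the one apart. With the erythroid mean as a covariate, Mrc1 differed by -0.63 (adjusted p 0.41) and Csf1r by -0.61 (adjusted p 0.342). With the cardiomyocyte mean in its place, Mrc1 differed by -0.73 (adjusted p 0.348) and Csf1r by -0.75 (adjusted p 0.198). The fits with the erythroid and the cardiomyocyte mean called 4 and 2 of all genes, where the main fit called 1572.

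Of the 29 further macrophage markers, 1 was called lower in Nkx2-5+/- hearts, 25 were below 0 and the median was -0.24. The called gene was Lyz2, the lysozyme of macrophages and other myeloid cells, which fell by 1.61 (SE 0.20, adjusted p 1.48e-04). Lyz2 stood apart from the rest of the list, where Ctss had the next smallest p, at -0.62 (SE 0.20, adjusted p 0.0539). With both mismatched arrays left out Lyz2 differed by -1.66 (adjusted p 2.53e-05), Lyve1, a hyaluronan receptor, was called lower as well, and the median of the 29 genes was -0.15, with 20 below 0. Lyz2 was called in Nkx2-5+/- Brg1+/- hearts too, where it fell by 1.57 (SE 0.22, adjusted p 0.00135), and its adjusted p was 0.0577 without Nkx2-5+/- Brg1+/- replicate 2. A list of ITAM and ITIM receptors and the signalling proteins around them had 14 measured genes, of which 1 was called. This was Sirpa, an inhibitory receptor for CD47 that carries ITIM motifs, which fell by 0.39 (SE 0.11, adjusted p 0.0278), and by 0.36 with both mismatched arrays left out (adjusted p 0.0273). Sirpa was not called without Nkx2-5+/- replicate 2 or 4 or wild type replicate 4, 5 or 6 (adjusted p 0.0516 to 0.144), nor with the erythroid mean as a covariate (adjusted p 0.504). Over all 21 alternatives it stayed called in 11. The phospholipase Plcg2, at -0.23, did not pass.

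**Figure D2:**
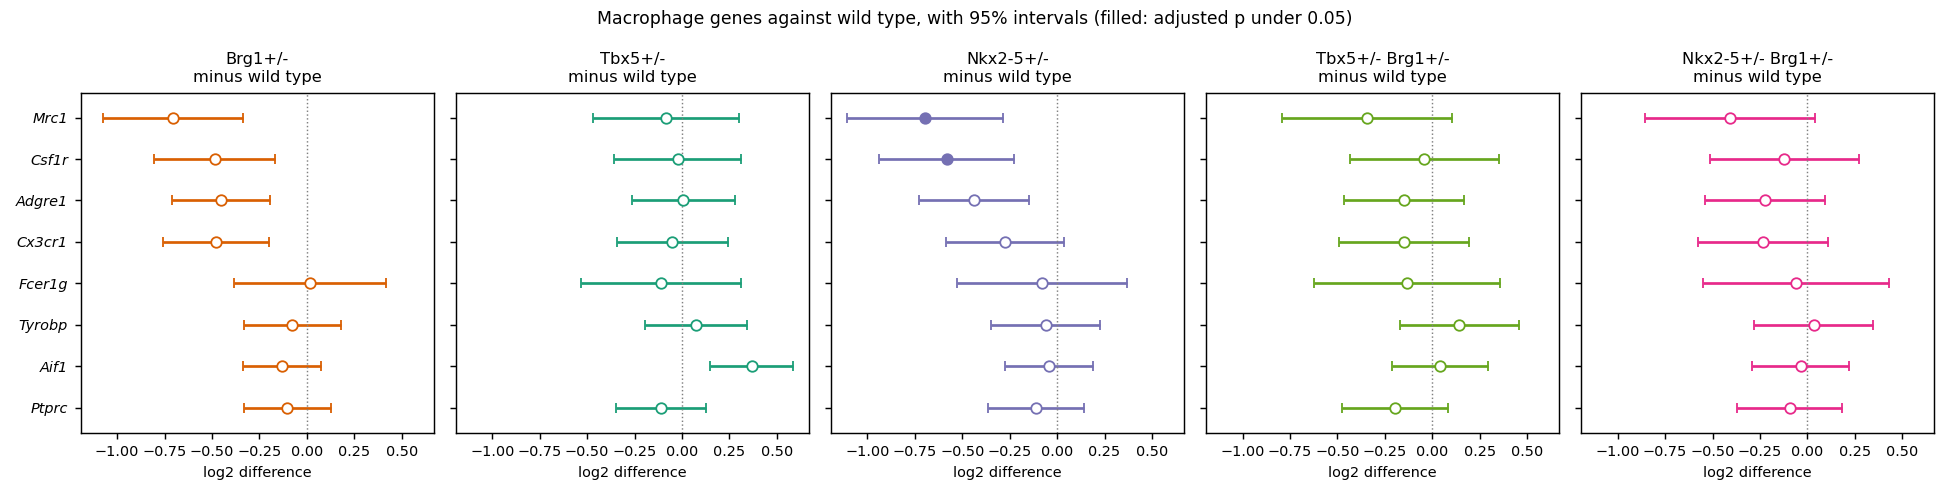
Log2 difference from wild type (horizontal axis) of the 8 genes (vertical axis) in the 5 heterozygous groups, with 95% intervals, open circles for genes that did not pass and filled circles for adjusted p under 0.05. The filled circles are Mrc1 and Csf1r in Nkx2-5+/- hearts, and the 4 receptors are also low in Brg1+/- hearts, where the circles are open.

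In both compound groups the mean signals of the 4 receptors lay above the Brg1+/- mean and below the wild-type mean. In Tbx5+/- Brg1+/- hearts 0 of the 8 genes passed (0% of all genes), and 0 of 8 reached an unadjusted p under 0.05, against 4.38% of all genes. Mrc1 was 6.65, 6.71 and 6.10, the last in the array whose Smarca4 goes against its label. Its difference from wild type was -0.34 (SE 0.22, adjusted p 0.979), and with both mismatched arrays left out it was -0.15. Ptprc was 5.59, 5.65 and 6.07, again with the mismatched array last and here highest. It differed by -0.20 (SE 0.14, adjusted p 0.979), and by -0.35 with both mismatched arrays left out (adjusted p 0.767).

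In Nkx2-5+/- Brg1+/- hearts 0 of the 8 genes passed, against 0.0351% of all genes, and 0 of 8 reached an unadjusted p under 0.05, against 7.39%. Mrc1 was 6.64, 6.22 and 6.42 and differed from wild type by -0.41 (SE 0.22, adjusted p 0.688). Adgre1 was 5.58, 5.45 and 5.59 and differed by -0.23 (SE 0.15, adjusted p 0.746). For both genes 2 of the 3 arrays were below every wild-type array. Csf1r was 7.42, 6.84 and 7.19, with 1 array below every wild-type array. The comparisons above share the 6 wild-type arrays, so their differences are not independent of each other.

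Removing 1 copy of Brg1 from hearts that already lacked 1 copy of Tbx5 gave 0 calls among the 8 genes (0% of all genes). At an unadjusted p under 0.05, 1 of 8 was lower, against 0.732% of all genes. This was Aif1, at 4.85, 4.79 and 5.09 in the compound hearts, which differed from Tbx5+/- hearts by -0.33 (SE 0.13, adjusted p 1). Mrc1 followed with -0.26 (SE 0.23, adjusted p 1). Aif1 differed by -0.42 and Mrc1 by -0.07 with both mismatched arrays left out, at an adjusted p of 1 for both. Aif1 in the compound hearts lay within the wild-type range.

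Removing 1 copy of Brg1 from Nkx2-5+/- hearts gave 0 calls among the 8 genes, against 0.0401% of all genes, and 1 of 8 was higher at an unadjusted p under 0.05, against 7.51% of all genes. Csf1r differed by 0.46 (SE 0.21, adjusted p 0.274) and Adgre1 by 0.22 (SE 0.17, adjusted p 0.6). All 8 differences were above 0, with a median of 0.07. Without the array labelled Nkx2-5+/- replicate 3 the median was -0.08, Csf1r differed by 0.22 (adjusted p 0.513), Adgre1 by 0.01 (adjusted p 0.973) and Cx3cr1 by -0.09 (adjusted p 0.834).

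The interaction asks whether Brg1 loss acts differently when a transcription factor is also reduced, as the Brg1 effect with the factor loss minus the Brg1 effect without it. For Nkx2-5, Csf1r and Mrc1 passed, which compares with 2.23% of all genes called higher and 4.95% called in either direction. The interaction was 0.95 for Csf1r (SE 0.26, 95% interval 0.42 to 1.48, limma adjusted p 0.033) and 0.996 for Mrc1 (SE 0.30, interval 0.39 to 1.60, adjusted p 0.0481). Adgre1, at 0.67 (SE 0.21, adjusted p 0.0605), and Cx3cr1, at 0.52 (SE 0.23, adjusted p 0.186), had the same sign. These 4 receptors were the ones at an unadjusted p under 0.05, against 11.9% of all genes higher at that level. The interaction contains the Brg1+/- and the Nkx2-5+/- differences from wild type with their signs turned, on the same arrays. It is therefore not independent of those comparisons. Fcer1g was at 0.00 with an interval from -0.66 to 0.67.

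Without the array labelled Nkx2-5+/- replicate 3, Csf1r stayed past the threshold at 0.71 (SE 0.22, adjusted p 0.0284), and Mrc1, at 0.81 (SE 0.29, adjusted p 0.0559), did not. With both mismatched arrays left out, the adjusted p was 0.029 for Csf1r and 0.0476 for Mrc1. No member was called without Brg1+/- replicate 2, Nkx2-5+/- replicate 2, any 1 of the 3 Nkx2-5+/- Brg1+/- arrays or wild type replicate 4, 5 or 6, and leaving out wild type replicate 1, or 1 of the Brg1+/- arrays numbered 3, 4 and 6, gave 1 called member. The erythroid genes moved the opposite way, with a median interaction of -2.63 and 12 of 12 called lower. With their mean as a covariate the interaction was 0.99 for Csf1r and 0.88 for Mrc1, with adjusted p of 1 for both. That fit called 0 of all genes, where the main fit called 987. With both mismatched arrays left out the erythroid median was -3.12, again with 12 of 12 called lower.

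Among the genes around these receptors, the called ones were higher, the ligand Csf1 at 0.61 (SE 0.18, adjusted p 0.0411) and Sirpa at 0.61 (SE 0.16, adjusted p 0.0285). They were at 0.67 (adjusted p 0.012) and 0.58 (adjusted p 0.0163) with both mismatched arrays left out. Leaving out 1 array at a time, Csf1 lost its call without Brg1+/- replicate 1, 2, 3 or 4, Nkx2-5+/- replicate 2 or 4, any of the 3 Nkx2-5+/- Brg1+/- arrays or wild type replicate 1, 3, 4, 5 or 6. Sirpa lost its call without Nkx2-5+/- replicate 2 or Nkx2-5+/- Brg1+/- replicate 1 or 2. With the erythroid mean as a covariate the adjusted p was 1 for both. Csf1 also lost its call with a further quantile normalization, array medians equalised and the replicate block (adjusted p 0.0503 to 0.0714). Both genes lost it with the cardiomyocyte mean as a covariate and with only the arrays compared (adjusted p 0.0563 to 0.295). Over all 30 alternatives Csf1 stayed called in 10 and Sirpa in 24. None of the 29 further macrophage markers was called, and 9 of 29 were higher at an unadjusted p under 0.05.

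For Tbx5, 0 of the 8 genes passed (0% of all genes), and 0 of 8 reached an unadjusted p under 0.05, against 3.04% of all genes. Csf1r had the smallest p, at 0.46 (SE 0.25, adjusted p 1), followed by Cx3cr1 at 0.38 (SE 0.22, adjusted p 1). With both mismatched arrays left out, Csf1r was at 0.55 and Mrc1 at 0.64, with an adjusted p of 0.832 for both, and Cx3cr1 was at 0.36 (adjusted p 0.835). Whether the interaction differs between the factors was not tested.

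**Figure D3:**
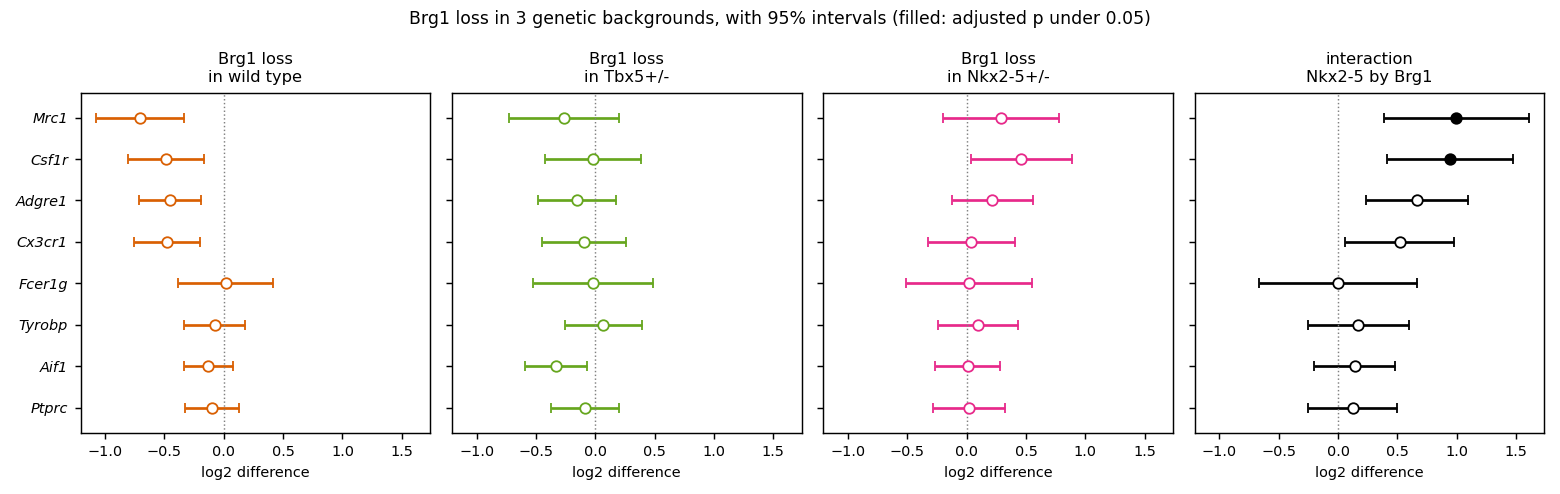
Log2 difference on loss of 1 copy of Brg1 (horizontal axis) of the 8 genes (vertical axis) in wild-type, Tbx5+/- and Nkx2-5+/- hearts, and the Nkx2-5 by Brg1 interaction, with 95% intervals and filled circles for adjusted p under 0.05. The 4 receptors are below 0 in wild type and above 0 in Nkx2-5+/- hearts (Cx3cr1 below 0 there without the array labelled Nkx2-5+/- replicate 3), and the filled circles are the interactions of Csf1r and Mrc1.

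The order of the group means differed from gene to gene. In Mrc1 the means ran from wild type (6.83 ± 0.36, SD, n = 6) and Tbx5+/- (6.75 ± 0.38, n = 5) through Tbx5+/- Brg1+/- (6.49 ± 0.34, n = 3) and Nkx2-5+/- Brg1+/- (6.43 ± 0.21, n = 3) to Nkx2-5+/- (6.14 ± 0.41, n = 4) and Brg1+/- (6.13 ± 0.29, n = 6). Neighbours in this order differed by less than the within-group SD of 0.34. In Csf1r the lowest means were Nkx2-5+/- (6.69 ± 0.51, n = 4) and Brg1+/- (6.79 ± 0.13, n = 6). The other 4 groups lay between 7.15 and 7.27. Without the array labelled Nkx2-5+/- replicate 3 the Nkx2-5+/- mean of Csf1r was 6.93 ± 0.21 (n = 3), and Brg1+/- was then the lowest group. The Nkx2-5+/- mean of Mrc1 was then 6.33 ± 0.19 (n = 3). In Cx3cr1 Brg1+/- was lowest at 6.62 ± 0.17 (n = 6), and the other 5 groups lay between 6.82 and 7.10. The 6.82 is the Nkx2-5+/- mean, which was 6.95 without the array labelled Nkx2-5+/- replicate 3. With all arrays the group means of Fcer1g spanned 0.15, those of Tyrobp 0.22 and those of Ptprc 0.20. Each span was close to or below the spread within groups of 0.38, 0.23 and 0.19. Without the array labelled Nkx2-5+/- replicate 3 the Nkx2-5+/- mean was 6.905 for Fcer1g and 6.03 for Ptprc, above every other group mean. For Tyrobp it was 6.06. Ptprc was 5.59 and 5.65 in the Tbx5+/- Brg1+/- arrays other than the mismatched one. These spans and spreads therefore rest in part on the mismatched arrays.

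Inside the groups the 8 genes varied together. As deviations from the group means over the 27 arrays, all 28 pairs had a correlation above 0, with a median of 0.58 and a range from 0.30 to 0.86. The closest pair was Mrc1 and Csf1r, and Ptprc with Mrc1 was the loosest. The mean deviation of the 8 genes was -0.55 in the array labelled Nkx2-5+/- replicate 3, where the other arrays ran from -0.31 to 0.30. The pairs were not computed without that array, so how far it raises them was not tested. These correlations describe arrays that share their normalization, and any RNA difference between hearts enters both members of a pair.

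By the same measure, the genes most like the mean of the 8 were Ctss (r = 0.90), C1qa (0.90), C1qc (0.86), Mpeg1 (0.85), C1qb (0.84), F13a1 (0.82), Ly86 (0.81), C3ar1 (0.78), Lrrc17 (0.78) and Gchfr (0.78) over 27 arrays. Ctss is a lysosomal protease, Mpeg1 a pore-forming protein of macrophages and C3ar1 a complement receptor. Without the 2 arrays farthest from the median the values ran from 0.65 for Lrrc17 to 0.86 for Ctss.

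The mean of the 8 genes followed the mean of the 29 further macrophage markers with r = 0.94 (Spearman 0.90), and 0.91 without the 2 farthest arrays. These were the arrays farthest from the median of the list mean, chosen separately for each list. Against the erythroid mean r was 0.21 (Spearman -0.03), and -0.09 without the 2 farthest arrays. Against the megakaryocyte mean r was 0.61, and 0.35 without the 2 arrays farthest in that mean. Against the neutrophil and mast cell mean it was 0.67, and 0.47 without the 2 farthest arrays. Against the lymphocyte mean it was 0.555, and 0.39 without them, so following the 8 genes was not particular to macrophage lists. Both of these lists had low signals. Against the cardiomyocyte mean r was -0.37, and 0.01 without the 2 farthest arrays. Fcer1g was the gene of the 8 that followed the megakaryocyte mean most closely, with r = 0.84, and 0.71 without the 2 farthest arrays. Ptprc had r = 0.59 with the erythroid mean, and 0.43 without the 2 arrays farthest in the erythroid mean. With the cardiomyocyte mean Ptprc had r = -0.69, and -0.50 without the 2 arrays farthest in that mean. For Cx3cr1 the value against the megakaryocyte mean was 0.19.

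**Figure D4:**
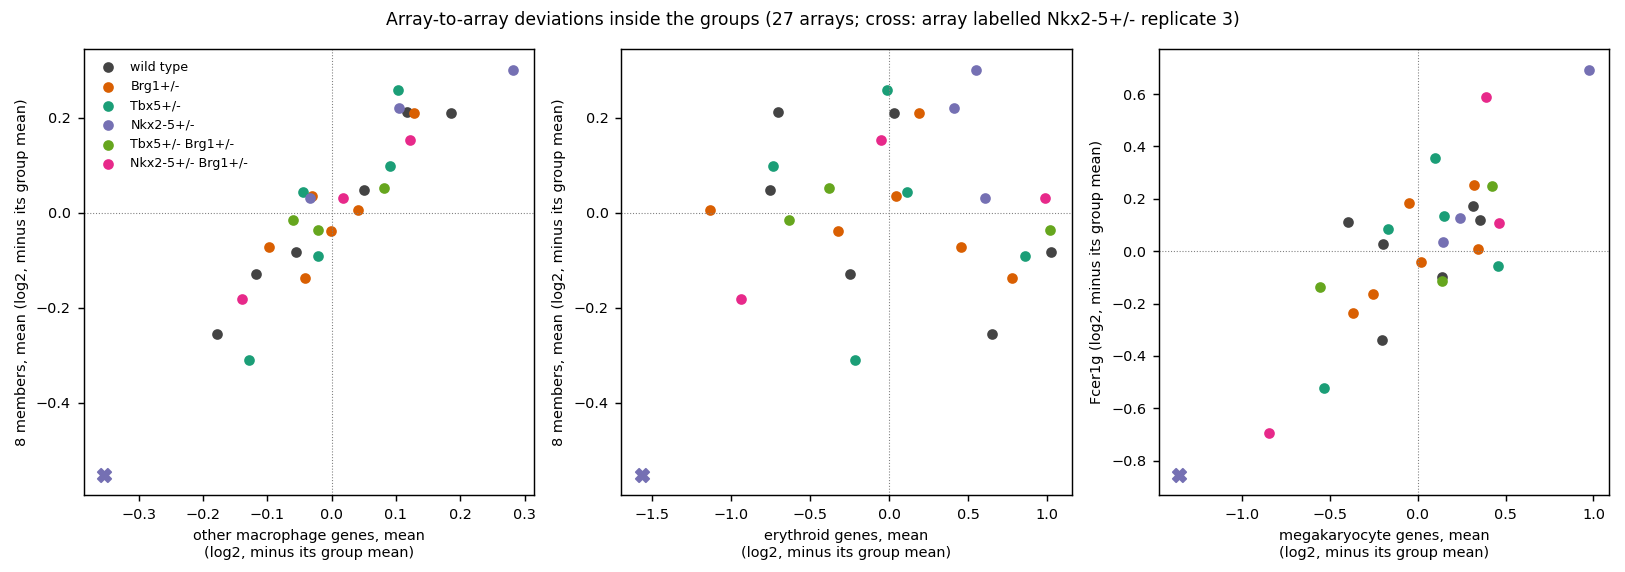
Array-by-array deviations from the group mean in log2 units, with the mean of the 8 genes against the mean of 29 other macrophage genes (left) and against the mean of 12 erythroid genes (middle), and Fcer1g against the mean of 6 megakaryocyte genes (right), coloured by group. Points follow a rising line at left and right, with r of 0.94 and 0.84, and form a wide cloud in the middle, while the cross marks the array labelled Nkx2-5+/- replicate 3 at the low end of all 3.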

How the data were processed

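Hearts were profiled on 27 arrays of 28815 probe sets. The submitters' processing notes name RMA, in Affymetrix Power Tools, as the authors' summary method, and versions were not given in the sources used here. The log2 signals were taken as deposited, and how many arrays a group has limits the precision.

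Probe sets with 1 symbol in the platform annotation (21780; 1605 had several and 5430 were unlisted) were kept, with the highest-mean probe set for each of 998 genes that had more than 1. This left 19935 genes. Groups were compared in 9 contrasts of a means model on all arrays, with limma 3.58.1 in R 4.3.3 (two-sided, Benjamini-Hochberg adjusted over all genes within a comparison, called at adjusted p under 0.05) and Python 3.11.15 for the rest. Every adjusted p is limma's. The fit was tested on simulated data.

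Members, lists, rules and alternatives were chosen with earlier results of these data known. Members with an unadjusted p under 0.05, or otherwise the 2 smallest, are given with their error. From each list up to 4 called genes, or 2 uncalled, are named. The labels give groups the same replicate numbers. Same-numbered arrays correlated with a median of 0.01 over 55 pairs (-0.45 to 0.41), so the numbers were not taken as pairs. Listed genes that no single-symbol probe set measured were not used here. Alternatives covered normalization, filter, variance prior, samples, probe choice, array weights, replicate block, blood and muscle covariates, mismatched arrays and each array left out. They were applied to the called list genes, and the mismatched arrays left out for the list medians, after the data had been seen.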

Additional observations from a re-analysis of the deposited data

Results flagged for a closer look

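Cx3cr1 in the array labelled Nkx2-5+/- replicate 3 was 6.437, far below the other 3 arrays of its group, which lay between 6.93 and 6.99. Its distance to the nearest of them was 0.883 of the range of the group. In all, 32 sets of values were examined in this way and 1 stood out, where chance gives about 1 in 20. That array also had Smarca4 and Nkx2-5 signals against its label, an erythroid mean of 9.04 and a megakaryocyte mean of 6.94, and the part of these in the Cx3cr1 value was not tested.

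The effect of Brg1 loss differed between hearts with and without Nkx2-5 loss for 2 of the 8 genes, by the interaction test in limma. The difference between the effects was 0.9958 for Mrc1 (adjusted p 0.0481) and 0.9458 for Csf1r (adjusted p 0.033). The difference on Brg1 loss was -0.71 and -0.49 in hearts with both copies of Nkx2-5, and 0.29 and 0.46 in Nkx2-5+/- hearts, or 0.10 and 0.22 there without the array labelled Nkx2-5+/- replicate 3. Without the array labelled Nkx2-5+/- replicate 3 the interaction was 0.81 for Mrc1 (adjusted p 0.0559) and 0.71 for Csf1r (adjusted p 0.0284). The erythroid genes had a median interaction of -2.63 and the cardiomyocyte genes one of 0.61, and their part in the result was not tested beyond the fits with each as a covariate.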

How the results depend on the processing

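In 7 of the 9 comparisons the count of called members was 0 in every alternative run, and no difference that was called changed sign. The medians of the 8 genes were not tested, and some changed sign. They ran from -0.10 to 0.03 in Tbx5+/- against wild type, and from -0.08 to 0.23 on Brg1 loss in Nkx2-5+/- hearts. In Nkx2-5+/- against wild type the count of 2 became 1 with array medians equalised and 0 with array weights, with the erythroid or the cardiomyocyte mean as a covariate, with both mismatched arrays left out and with a fit of only the arrays compared. Of all genes, 1572 were called in the main fit and 1409 with array medians equalised. The fits with 0 called members had, in the same order, 3744, 4, 2, 4346 and 4 of all genes called. With the replicate block, which the data do not show to be a pairing, the member count was also 0, with Mrc1 at -0.66 (adjusted p 0.059). That fit called 1120 of all genes. Leaving out 1 array at a time gave 0 to 3 called members, with 0 without Nkx2-5+/- replicate 2, 3 or 4 or wild type replicate 4, 5 or 6. Between 66 and 4368 of all genes were called in these fits. In the Nkx2-5 by Brg1 interaction the count of 2 became 1 with a further quantile normalization, with array medians equalised and with a trended and robust variance prior, 4 with array weights, and 0 with either covariate and with only the arrays compared. Over all genes the main fit called 987, and the fits with 1 called member had 1316, 1011 and 948 in that order. Array weights called 4235, the erythroid and cardiomyocyte covariates 0 and 4, and the fit of only the arrays compared 25. Leaving out 1 array gave 0 to 3, with 0 without Brg1+/- replicate 2, Nkx2-5+/- replicate 2, any of the 3 Nkx2-5+/- Brg1+/- arrays or wild type replicate 4, 5 or 6. Between 6 and 3224 of all genes were called in those fits. The replicate block gave 3 called members in the interaction, with 1368 of all genes called. The causes were not tested. Over all alternatives the interaction ran from 0.81 to 1.10 for Mrc1 and from 0.71 to 1.14 for Csf1r, and Mrc1 in Brg1+/- hearts ran from -0.79 to -0.63 with an adjusted p of 0.125 at the lowest. With the genes of lowest mean left out, Aif1 was not in the fit. There 3 members were called both in Nkx2-5+/- against wild type and in the Nkx2-5 by Brg1 interaction, with 2037 and 1387 of all genes called.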
